A study of Mus musculus with 3 samples.

Results

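The genes described here are 38 members of the fatty acid oxidation programme of the mouse, chosen as a fixed list of symbols: the receptor PPARA and its coactivator, the carnitine shuttle, the mitochondrial and peroxisomal oxidation enzymes, and genes for fatty acid uptake, activation and hydrolysis, with the Cyp4a genes left out. All 38 were among the 33696 genes of the deposited count tables. Kidneys of male mice gave 3 single-cell 3′ RNA libraries, 1 per group. The aged D+Q library came from 20-month-old mice given D+Q, the aged library from 20-month-old mice given vehicle and the young library from mice of 3 to 4 months. D+Q is not spelled out in the labels and usually stands for the kinase inhibitor dasatinib with the flavonoid quercetin, a pair used to clear senescent cells. The sources used here give neither the strain, the dose nor whether animals were pooled.

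PPARA is a nuclear receptor that binds DNA with RXR as its partner, is activated by fatty acids, and drives genes for fatty acid uptake, activation and oxidation, above all in fasting. Fatty acids enter the cell through carriers, are joined to coenzyme A, and either cross into mitochondria by the carnitine shuttle or, when very long or branched, are shortened in peroxisomes. The proximal tubule of the kidney reabsorbs most of the filtered load and takes most of its energy from this oxidation, which makes it the cell type of main interest. Its early part is called S1 and its last, straight part S3.

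The libraries held 8037, 6027 and 8615 barcodes (aged D+Q, aged and young) with 21058975, 13944270 and 24346733 UMI counts. After filtering, 7424, 5701 and 7734 cells were kept, and 5051, 3882 and 4839 of them were proximal tubule-like, named from clusters with proximal tubule transport markers. All 16 markers of that list were counted in all 3 libraries, with a summed level of 30677 CPM in aged D+Q, 27995 in aged and 29642 in young cells, that is, counts scaled to the same class total. In the same order, these cells had a median of 2302, 1800 and 2355 counts, and a median of 5.52%, 4.34% and 5.57% mitochondrially encoded counts. Across libraries, 99 barcode sequences occurred in more than 1 library, 80 of them among the cells kept. Other classes also carried proximal tubule transcripts: in the 4 other classes compared, the marker sum stood at 52.4% to 72.3% of its proximal tubule-like level. Levels are CPM of the summed counts of a class, with exact Poisson 95% intervals, and log2 ratios have exact conditional binomial 95% intervals. Both kinds of interval describe counting error and nothing else. Each group is a single library, so no difference could be set against replicate spread, none was tested, and "higher" and "lower" are said of these libraries.

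The finding turns on Ehhadh and Pdk4, and the promoters of both are shown with that of Acadm, 1 of the members that differed between aged D+Q and young cells. Each is the 250 bases before the start site from RefSeq on GRCm38.p6, on the gene's own minus strand. Capitals mark the PPAR and RXR hexamer AGGTCA or its reverse complement TGACCT.
Ehhadh, chr16:21787835-21788084: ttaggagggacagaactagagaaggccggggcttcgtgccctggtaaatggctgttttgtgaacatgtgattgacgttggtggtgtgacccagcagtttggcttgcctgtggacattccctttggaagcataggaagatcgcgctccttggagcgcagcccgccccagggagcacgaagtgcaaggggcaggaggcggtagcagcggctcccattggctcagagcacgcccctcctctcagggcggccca
Pdk4, chr6:5496279-5496528: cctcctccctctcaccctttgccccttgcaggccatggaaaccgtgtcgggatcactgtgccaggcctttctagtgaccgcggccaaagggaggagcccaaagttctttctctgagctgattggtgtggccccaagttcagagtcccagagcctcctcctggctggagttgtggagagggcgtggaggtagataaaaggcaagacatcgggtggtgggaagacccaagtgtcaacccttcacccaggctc
Acadm, chr3:153944644-153944893: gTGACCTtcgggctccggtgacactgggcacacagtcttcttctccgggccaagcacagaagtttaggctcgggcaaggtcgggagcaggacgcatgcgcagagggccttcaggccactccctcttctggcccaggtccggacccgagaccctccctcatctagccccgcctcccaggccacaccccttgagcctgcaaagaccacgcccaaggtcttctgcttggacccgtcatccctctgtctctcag
The Acadm window held 1 hexamer and the windows of Ehhadh and Pdk4 held 0. Of the 8 members at least 1.5-fold apart in any comparison, Acadm was the only 1 with the hexamer. The windows of Acaa1b, Acot1, Acot2, Acox2 and Acsl1 also held 0. Of the 34 members with a promoter in the table, 8 held the hexamer on either strand within these 250 bases (Acadm, Acadvl, Acot12, Cd36, Cpt1a, Echs1, Fabp1 and Slc27a2). Of all 32851 promoters, 14.0% held it. A member was counted if any of its promoters held the hexamer, while the 14.0% is of single promoters, so these shares are not like for like. The full element, AGGTCA repeated in the same direction after 1 base, was found in 0 of the 34 and in 0.0335% of all promoters. These windows are short, and a missing match says only that these letters are not in them. Acaa2, Decr1, Hsd17b4 and Crat had no entry.

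In the aged library, proximal tubule-like cells had 6 members at least 1.5-fold lower than in the young library and 0 were at least 1.5-fold higher. Among all 10766 genes above the expression floor, 4.03% were at least 1.5-fold lower and 4.81% higher by that much. The members were chosen with earlier results of these data known, so counts above such shares are not independent of that choice. The 6 were Pdk4, Ehhadh, Acot1, Acot2, Acsl1 and Acaa1b. Acot2 reached the floor on mean level through the young library, where it was highest, so its call rests partly on the floor. With 5 CPM required in at least 2 libraries, a rule added after the data were seen, 5 of 35 members were lower by that much, against 3.78% of all genes. Of the 38 members, 36 passed the floor of 30 counts and a mean of 5 CPM over the libraries, and Acsf2 and Fabp1 did not. The median log2 ratio of these 36 was −0.20, against 0.06 over all genes, and 28 of them lay below that median of all genes. In the aged D+Q library, 2 members were at least 1.5-fold higher than in the aged library, Ehhadh and Pdk4, and 0 were at least 1.5-fold lower, against a background of 1.99% higher and 2.19% lower. The median there was −0.00, against −0.05 over all genes. Aged D+Q against young cells gave 4 members at least 1.5-fold lower (Pdk4, Acot1, Acadm and Acox2) and 0 higher, against a background of 3.20% lower and 2.81% higher, with a median of −0.18 against 0.02. These comparisons share libraries, since the aged library is in the first and the second, and so they are not independent of each other. The files give the identifiers ENSMUSG00000022853 for Ehhadh, ENSMUSG00000019577 for Pdk4, ENSMUSG00000072949 for Acot1, ENSMUSG00000021226 for Acot2, ENSMUSG00000018796 for Acsl1, ENSMUSG00000010651 for Acaa1b, ENSMUSG00000062908 for Acadm and ENSMUSG00000021751 for Acox2.

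**Figure D1:**
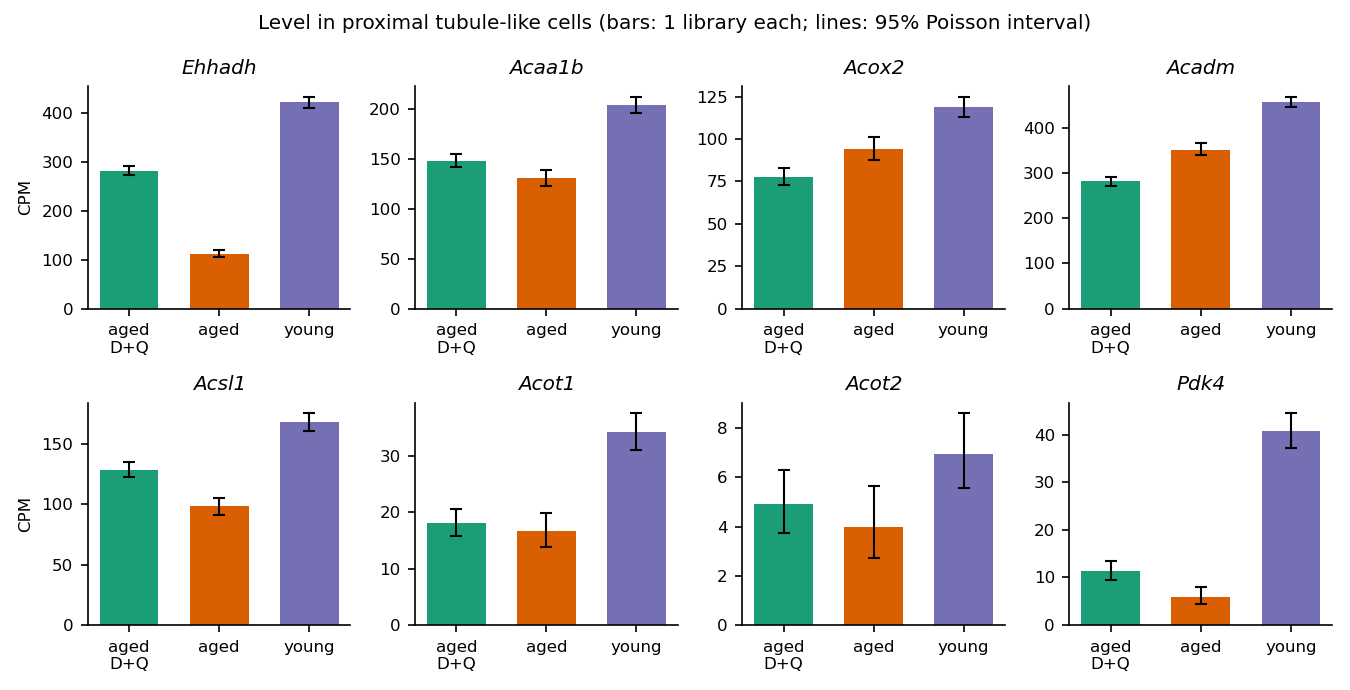
Level in CPM (y axis, from 0) of the 8 members that were at least 1.5-fold apart in any comparison, for the aged D+Q, aged and young libraries (x axis) within the proximal tubule-like class; bars are 1 library each and lines the exact Poisson 95% interval. The young bar is the highest in all 8 panels, and Ehhadh stands at 282 CPM in aged D+Q, 112 CPM in aged and 422 CPM in young cells.

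**Figure D2:**
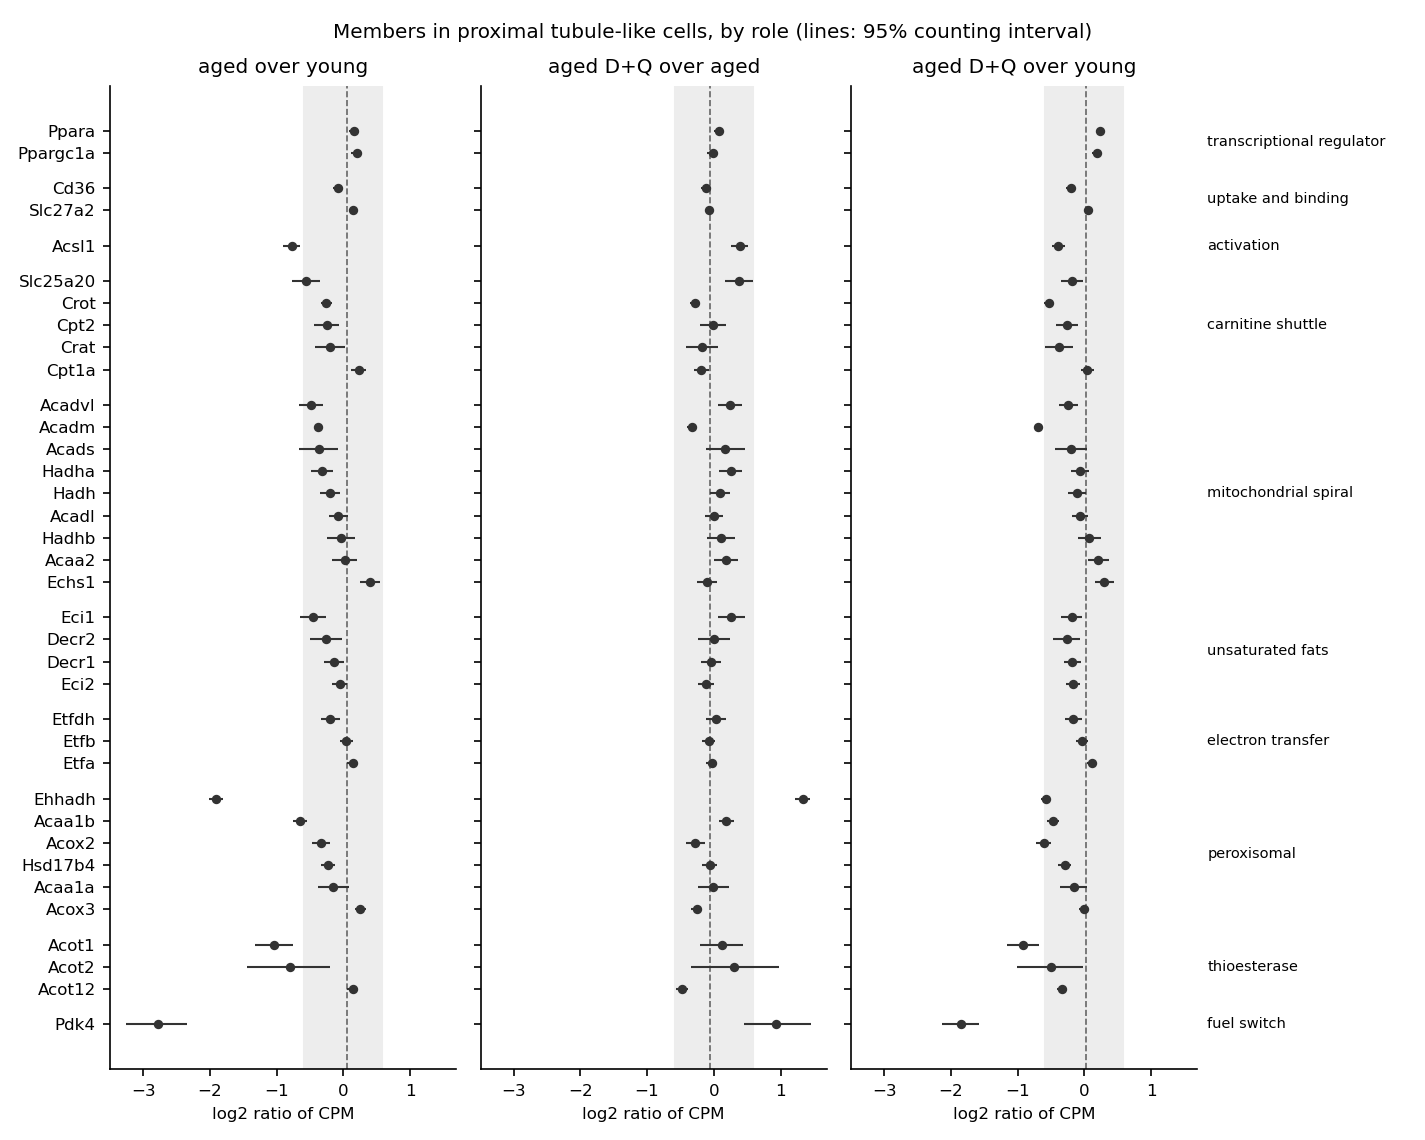
Log2 ratio of CPM (x axis) of the 36 members above the floor (y axis, grouped by role) in proximal tubule-like cells for aged over young, aged D+Q over aged and aged D+Q over young; points are the ratios, lines their 95% counting intervals, the grey band lies within 1.5-fold and the dashed line is the median of all genes. Most members lie inside the band, and Ehhadh and Pdk4 lie left of it for aged over young and right of it for aged D+Q over aged.

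The peroxisomal enzymes held the member with the second-lowest ratio between aged and young cells. Ehhadh, the bifunctional enzyme that hydrates and dehydrogenates acyl-CoA in the peroxisome, had 282 CPM (273 to 292) in aged D+Q, 112 CPM (105 to 119.8) in aged cells and 422 CPM (411 to 434) in young, from 3508, 873 and 5156 counts. The 3 intervals do not overlap, and the aged library is the low one. The log2 ratio was −1.91 (−2.02 to −1.81) for aged over young, 1.33 (1.22 to 1.44) for aged D+Q over aged and −0.58 (−0.64 to −0.52) for aged D+Q over young. The last lies just inside the 1.5-fold limit. Acaa1b, a thiolase that closes the peroxisomal cycle, had 148 CPM (142 to 155) in aged D+Q, 130.5 CPM (123 to 139) in aged cells and 204 CPM (196 to 213) in young. Aged D+Q and aged cells stood close together and young cells above both, with a log2 ratio of −0.65 (−0.75 to −0.54) for aged over young and 0.18 (0.07 to 0.30) for aged D+Q over aged. Its paralogue Acaa1a had 31.2 CPM in aged D+Q, 31.3 in aged and 34.8 in young cells. The last 400 bases of their longest GENCODE M21 transcripts were 77.5% identical and shared 39.6% of 30-base words, so counts of Acaa1a and Acaa1b are uncertain, since the sources used here do not say how reads were divided between them.

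Acox2, the oxidase for branched chains and bile acid intermediates, was lowest in aged D+Q cells over the class as a whole, though not in every cluster described below. It had 77.8 CPM (73.0 to 82.9) in aged D+Q, 94.2 CPM (87.5 to 101) in aged cells and 119 CPM (113 to 125) in young. The log2 ratio of aged D+Q over young was −0.61 (−0.73 to −0.49) and that of aged over young −0.33 (−0.46 to −0.21). Acox3, the related oxidase, went the other way in the aged library, with 231, 276 and 232 CPM in aged D+Q, aged and young cells. Hsd17b4, the multifunctional enzyme that runs parallel to Ehhadh, had 133 CPM in aged D+Q, 139 in aged and 163 in young cells. Summed over the 6 peroxisomal members the level was 903 CPM in aged D+Q, 783 CPM in aged and 1174 CPM in young cells, with a log2 ratio of −0.59 (−0.63 to −0.54) for aged over young. Ehhadh made up most of that difference.

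Pdk4, the kinase that holds back pyruvate dehydrogenase and so spares glucose when fat is burned, had the lowest ratio for aged over young among the 36 members above the floor. It had 11.3 CPM (9.55 to 13.4) in aged D+Q, 5.91 CPM (4.33 to 7.88) in aged cells and 40.8 CPM (37.3 to 44.5) in young, from 141, 46 and 498 counts. Young cells stood far above both aged groups, and aged D+Q cells stood above aged cells with no overlap of the intervals. The log2 ratio was −2.78 (−3.26 to −2.35) for aged over young, 0.94 (0.45 to 1.45) for aged D+Q over aged and −1.84 (−2.13 to −1.57) for aged D+Q over young. The lower limit of the aged D+Q over aged interval lies below 1.5-fold, which is 0.58 on the log2 scale.

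The thioesterases release free fatty acids from coenzyme A. Acot1, the cytosolic enzyme, had 18.1 CPM (15.8 to 20.6) in aged D+Q, 16.7 CPM (14.0 to 19.8) in aged cells and 34.2 CPM (31.0 to 37.7) in young. Both aged groups overlapped and lay below the young library, with log2 ratios of −1.03 (−1.33 to −0.75) for aged over young, 0.12 (−0.20 to 0.44) for aged D+Q over aged and −0.92 (−1.16 to −0.68) for aged D+Q over young. Acot2, its mitochondrial paralogue, rested on 61, 31 and 85 counts, or 4.91 CPM (3.75 to 6.31) in aged D+Q, 3.98 CPM (2.71 to 5.65) in aged cells and 6.96 CPM (5.56 to 8.60) in young. It passed the floor through the young library, the intervals of aged and young cells overlap slightly, and its ratio of −0.80 (−1.45 to −0.20) is imprecise. The last 400 bases of the Acot1 and Acot2 transcripts shared 0 of 371 words of 30 bases. Of the words of the whole Acot2 transcript, 30.1% were also in that of Acot1, so the 0 holds for these ends only. Acot12, which acts on acetyl-CoA, had 205 CPM in aged D+Q, 285 in aged and 259 in young cells, with a ratio of −0.48 (−0.56 to −0.39) for aged D+Q over aged, the lowest among the members in that comparison.

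For uptake and activation, Acsl1, which joins long-chain fatty acids to coenzyme A, had 128 CPM (122 to 135) in aged D+Q, 98.1 CPM (91.3 to 105) in aged cells and 168 CPM (161 to 175) in young. Over the class as a whole the 3 intervals do not overlap, and aged D+Q cells lie between the others. The difference between aged D+Q and aged cells was not alike in the clusters described below. The log2 ratio was −0.77 (−0.90 to −0.65) for aged over young and 0.39 (0.26 to 0.51) for aged D+Q over aged. Slc27a2, a fatty acid carrier and acyl-CoA synthetase, was the member with the most counts and varied little, with 2462 CPM in aged D+Q, 2600 CPM in aged and 2359 CPM in young cells. Cd36, the scavenger receptor that takes up long-chain fatty acids, had 283 CPM in aged D+Q, 308 in aged and 326 in young cells. Fabp1, the liver fatty acid binding protein, had 4 counts in aged D+Q, 4 in aged and 2 in young, over all proximal tubule-like cells of the library. Acsf2, a medium-chain acyl-CoA synthetase, had 35 counts in aged D+Q, 19 in aged and 30 in young cells.

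The regulators above the floor stayed within 1.5-fold in the 3 comparisons. Ppara itself had 376 CPM (366 to 387) in aged D+Q, 358 CPM (344 to 371) in aged cells and 320 CPM (310 to 330) in young. Over the class as a whole it was lowest in the young library, where Ehhadh and Pdk4 were highest, though not in every cluster described below. Its log2 ratio over the class was 0.16 (0.09 to 0.23) for aged over young. Ppargc1a, the coactivator PGC-1α, had 277 CPM in aged D+Q, 281 in aged and 244 in young cells, with a ratio of 0.20 (0.12 to 0.28). Of 14 further regulators, 13 passed the floor and 0 were at least 1.5-fold apart in any of the 3 comparisons. Over all genes, 4.03% were lower and 4.81% higher by that much for aged over young. The shares were 2.19% and 1.99% for aged D+Q over aged, and 3.20% and 2.81% for aged D+Q over young. With 13 genes, 0 lies near these shares. Hnf4a, a nuclear receptor of tubule and liver cells, had 194 CPM in aged D+Q, 202 in aged and 170 in young cells. Rxra, the partner of PPARA, had 11.8 CPM in aged D+Q, 8.09 in aged and 11.4 in young cells, with a ratio of −0.49 (−0.95 to −0.05) for aged over young and 0.55 (0.11 to 1.00) for aged D+Q over aged. Ppard, the receptor most like PPARA in its targets, had 15.2 CPM in aged D+Q, 12.1 in aged and 10.97 in young cells, and Pparg, the adipocyte receptor, had 34 counts in aged D+Q, 26 in aged and 54 in young cells and did not pass the floor.

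The 5 carnitine shuttle members and the 9 of the mitochondrial spiral, the core of the pathway, stayed within 1.5-fold between aged and young cells. Over all genes, 4.03% were at least 1.5-fold lower there and 4.81% higher, and with so few members 0 lies near these shares. The summed level had a log2 ratio for aged over young of −0.15 (−0.21 to −0.10) for the shuttle. For the spiral it was −0.23 (−0.28 to −0.19). Cpt1a, the rate-limiting entry enzyme of the carnitine shuttle, had 131 CPM (124 to 137) in aged D+Q, 149 CPM (140 to 158) in aged cells and 127 CPM (120 to 133) in young. Crot, the peroxisomal carnitine acyltransferase, was the shuttle gene with the most counts, at 229 CPM in aged D+Q, 279 in aged and 332 in young cells, with a ratio of −0.25 (−0.33 to −0.18) for aged over young. Slc25a20, the carnitine carrier of the inner membrane, had 43.9 CPM in aged D+Q, 33.8 in aged and 49.9 in young cells, and its ratio of −0.56 (−0.78 to −0.35) lies just inside the 1.5-fold limit. Cpt2, which re-forms acyl-CoA inside mitochondria, had 43.9 CPM in aged D+Q, 44.3 in aged and 52.6 in young cells. Crat, which handles short chains, had 27.8 CPM in aged D+Q, 31.5 in aged and 36.1 in young cells.

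Acadm, the medium-chain acyl-CoA dehydrogenase, was the mitochondrial enzyme with the most counts. It had 282 CPM (273 to 292) in aged D+Q, 353 CPM (340 to 366) in aged cells and 458 CPM (446 to 470) in young. Over the class as a whole it was lowest in the aged D+Q library, though not in every cluster described below. The log2 ratios were −0.70 (−0.76 to −0.64) for aged D+Q over young, −0.32 (−0.39 to −0.25) for aged D+Q over aged and −0.38 (−0.44 to −0.31) for aged over young. The other 8 members of the mitochondrial spiral lay between −0.48 and 0.40 for aged over young. Acadvl, the very-long-chain dehydrogenase, was at the low end and Echs1, the short-chain hydratase, at the high end. For aged D+Q over aged the 9 ranged from −0.32 to 0.25, with Hadha, a subunit of the trifunctional protein, at the high end. The enzymes for unsaturated fatty acids ranged from −0.45 to −0.05 for aged over young. Eci2, an isomerase that shifts double bonds, had the most counts among them, at 120 CPM (114 to 126) in aged D+Q, 129.9 CPM (122 to 138) in aged cells and 135 CPM (128 to 141) in young. The electron transfer genes Etfa, Etfb and Etfdh, which pass electrons from the dehydrogenases to the respiratory chain, ranged from −0.20 to 0.14, and Etfa had 264 CPM in aged D+Q, 269.9 in aged and 245 in young cells.

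Genes of the same pathway outside the 38 were examined as 5 lists. These lists were also chosen with earlier results of these data known. Their counts against the shares over all genes are therefore not independent support. Among 24 other PPARA target genes, 17 passed the floor. Of these, 6 were at least 1.5-fold lower in aged than in young cells and 0 were higher by that much, against 4.03% lower and 4.81% higher over all genes. The median log2 ratio of the 17 was −0.43, against 0.06 over all genes. The 6 were Ucp2, Txnip, Acot3, Angptl4, Mgll and Retsat, and not all of these answer to PPARA alone. Ucp2, a carrier of the inner mitochondrial membrane, had 4.67, 3.47 and 11.5 CPM in aged D+Q, aged and young cells. Txnip, a glucose-regulated inhibitor of thioredoxin, had 52.8 CPM in aged D+Q, 45.1 in aged and 107 in young cells. Acot3, a peroxisomal thioesterase, had 4.75 CPM in aged D+Q, 3.85 in aged and 8.60 in young cells. Ucp2 and Acot3 reached the floor only through the young library, where they were highest. With 5 CPM required in at least 2 libraries, 4 of 15 genes of the list were lower and their median was −0.29. In aged D+Q over aged cells 1 of the 17 was at least 1.5-fold higher, against 1.99% of all genes. This was Angptl4, a secreted inhibitor of lipoprotein lipase, with 33.1 CPM (30.0 to 36.4) in aged D+Q, 21.8 CPM (18.7 to 25.4) in aged cells and 39.7 CPM (36.3 to 43.4) in young.

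Among 16 further genes of fatty acid uptake and activation above the floor, 4 were at least 1.5-fold lower in aged than in young cells and 0 higher, against 4.03% and 4.81% of all genes, as for the lists that follow. Lpl, the lipoprotein lipase that frees fatty acids from circulating triglyceride, had 351 CPM (341 to 362) in aged D+Q, 193 CPM (183 to 203) in aged cells and 391 CPM (380 to 402) in young. Its order over the libraries was that of Ehhadh, with log2 ratios of −1.02 (−1.11 to −0.94) for aged over young and 0.86 (0.78 to 0.95) for aged D+Q over aged. The other 3 were Slc27a4, Fabp4 and Pnpla2. Acsm3, a medium-chain acyl-CoA synthetase, was the 1 gene of the list at least 1.5-fold lower in aged D+Q than in aged cells, against 2.19% of all genes, with 169.96 CPM (163 to 177) in aged D+Q, 276 CPM (264 to 287) in aged cells and 295 CPM (285 to 304) in young. Of 27 further peroxisomal genes above the floor, only Hacl1, which cleaves 2-hydroxy acids, was at least 1.5-fold lower in aged than in young cells, with 67.8 CPM in aged D+Q, 52.4 in aged and 99.1 in young cells. Of 18 further mitochondrial and ketone genes above the floor, 0 were at least 1.5-fold apart in any comparison, against the shares over all genes given with the regulators. Cpt1b, the muscle form of the entry enzyme, had 32 counts in aged D+Q, 14 in aged and 36 in young cells and did not pass the floor.

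Proximal tubule-like cells formed 5 clusters with at least 50 cells in every library, and the clustering left out the members, so their levels within a cluster were not used to draw it. By segment markers, clusters 1 and 7 were rich in S1 markers, with 8303 CPM in aged D+Q, 8886 in aged and 8324 in young cells of cluster 1 and 11922, 13308 and 14026 CPM in the same order in the smaller cluster 7, and cluster 2 was rich in S3 markers (10153 CPM in aged D+Q, 11096 in aged and 8426 in young cells). The S3 marker sum over all proximal tubule-like cells was 4211 CPM in aged D+Q, 4881 in aged and 3624 in young cells, and cluster 2 held 15.03% of these cells in aged D+Q, 20.8% in aged and 19.3% in young. Cluster 1 held 23.0% in aged D+Q, 20.5% in aged and 28.2% in young, cluster 7 held 8.30%, 7.93% and 3.47% in the same order, and cluster 3 held 10.8%, 4.82% and 9.88%. The part of this makeup in the results was examined by giving the clusters equal weight. This left the log2 ratio of Ehhadh for aged over young at −1.79 and moved that of Acaa1b to −0.48, inside the 1.5-fold limit. Cluster 3, with its high mitochondrial share, was also left out in 1 alternative, with 4503, 3695 and 4361 cells in aged D+Q, aged and young. Ehhadh was lower in aged than in young cells in all 5 clusters. In cluster 2 it had 295 CPM in aged D+Q, 110 CPM in aged and 579 CPM in young cells, and in cluster 1 it had 164 CPM in aged D+Q, 85.8 in aged and 215 in young cells. The log2 ratio of aged over young ranged from −2.39 in cluster 2 to −0.80 in cluster 7, and that of aged D+Q over aged from 0.07 in cluster 3, which has a median mitochondrial share of 37.6% to 39.0%, to 1.64 in cluster 0. Pdk4 was also lower in aged than in young cells in all 5 clusters, though in clusters 1, 3 and 7 the aged library held 3, 1 and 1 counts of it. Acot1 and Acsl1 were lower in aged than in young cells in all 5 clusters too, with Acot1 in cluster 7 resting on 7 aged and 6 young counts. Between aged D+Q and aged cells, Acsl1 had 93.0 and 85.4 CPM in cluster 0, with a ratio of 0.12 (−0.09 to 0.34). It had 26.9 and 25.3 CPM in cluster 2, and 227 and 169 CPM in cluster 1. The part of cluster makeup in the class ratio of Acsl1 for aged D+Q over aged was not tested further. Ppara in cluster 1 had 472 CPM in aged D+Q, 444 in aged and 452 in young cells. In cluster 0 it had 352, 372 and 355 CPM in the same order. In these clusters the aged over young ratio of Ppara was −0.02 (−0.16 to 0.11) and 0.07 (−0.04 to 0.18). The young library was thus not the lowest for Ppara in either. Acox2 and Acadm, lowest in aged D+Q over the class, did not hold that order in every cluster. In cluster 0, the largest, Acox2 had 84.8 CPM in aged D+Q, 82.9 in aged and 77.6 in young cells. In the same order it had 28.6, 27.3 and 27.6 CPM in cluster 1 and 192, 218 and 346 CPM in cluster 2. Acadm had 240, 233 and 305 CPM in cluster 0, 164, 186 and 213 in cluster 1 and 420, 618 and 816 in cluster 2.

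**Figure D3:**
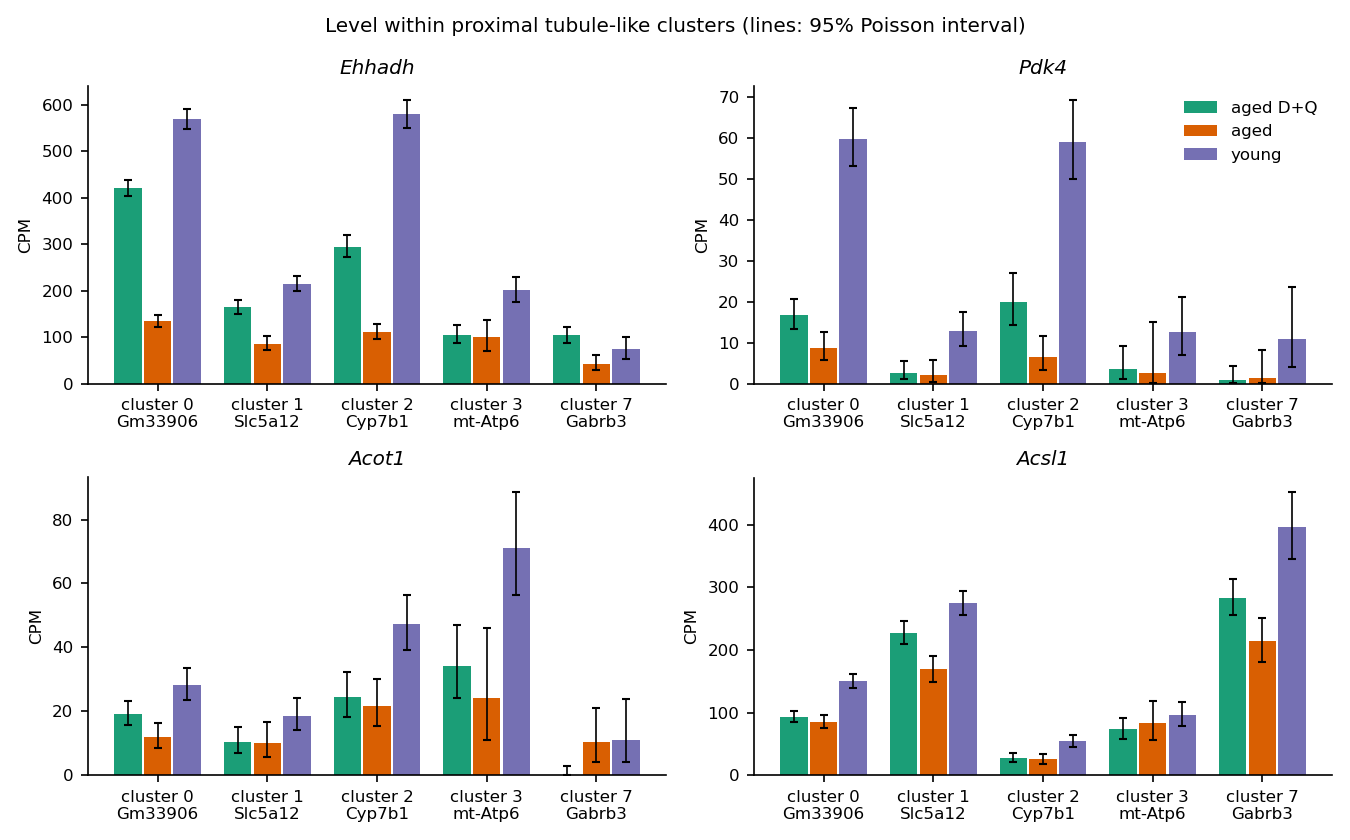
Level in CPM (y axis, from 0) of Ehhadh, Pdk4, Acot1 and Acsl1 in the 5 proximal tubule-like clusters (x axis, with the leading gene of each) for aged D+Q, aged and young libraries; lines are exact Poisson 95% intervals. Ehhadh reaches 568 CPM and 579 CPM in clusters 0 and 2 of the young library, against 135 CPM and 110 CPM in the aged library.

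The members differed among themselves in their place along the tubule. Set against cluster 1, the larger of the 2 S1-rich clusters, the S3-rich cluster 2 had 9 of the 36 members at least 1.5-fold higher in all 3 libraries, against 10.4% of all genes, and 4 at least 1.5-fold lower, against 7.23%. The 9 were Acox2, Crot, Cd36, Pdk4, Acadm, Acot1, Slc27a2, Eci2 and Acot12. For Pdk4 the ratio in the aged library was 1.55 (−0.22 to 4.18), an interval that spans 0. Acox2 had the largest ratio in the young library, at 3.64 on the log2 scale, and 2.74 and 2.99 in aged D+Q and aged cells. The 4 that were higher in cluster 1 were Acsl1, Ppargc1a, Acaa2 and Ppara. Acsl1 had ratios of −3.06 in aged D+Q, −2.73 in aged and −2.34 in young cells, and Ppara −1.36, −0.995 and −1.36 in the same order. Ehhadh had 0.84 in aged D+Q, 0.36 in aged and 1.43 in young cells. Among the members at least 1.5-fold lower in aged than in young cells, Pdk4 and Acot1 were higher in cluster 2 and Acsl1 in cluster 1. Ehhadh, Acaa1b and Acot2 were past 1.5-fold in neither direction in all 3 libraries. Of the others higher in cluster 2, Acadm, Acox2, Crot, Cd36 and Eci2 were lower in aged than in young cells by less than 1.5-fold. Slc27a2 and Acot12 were not lower.

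**Figure D4:**
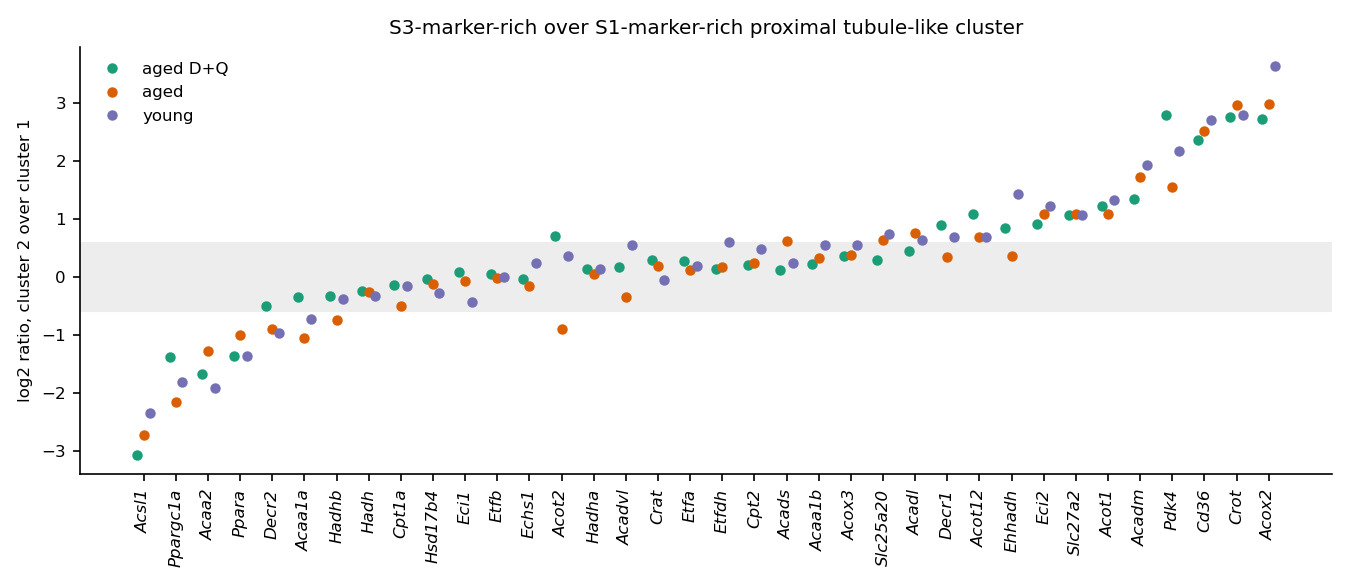
Log2 ratio of the S3-marker-rich cluster 2 over the S1-marker-rich cluster 1 (y axis) for each of the 36 members above the floor (x axis, ordered by mean), 1 point per library for aged D+Q, aged and young; the grey band lies within 1.5-fold. The order runs from Acsl1, at −3.06 to −2.34, to Acox2, at 2.74 to 3.64.

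Ehhadh was also lower in aged than in young cells in the 4 other classes compared, and it was higher in aged D+Q than in aged cells, beyond counting error, in 2 of them. In endothelial-like cells it had 138 CPM in aged D+Q, 78.1 CPM in aged and 212 CPM in young cells, with log2 ratios of −1.44 (−1.86 to −1.04) for aged over young and 0.82 (0.39 to 1.28) for aged D+Q over aged. In thick ascending limb-like cells it had 123 CPM in aged D+Q, 59.6 in aged and 203 in young, with ratios of −1.76 (−2.47 to −1.13) and 1.04 (0.37 to 1.79). The distal convoluted tubule-like class had 66.1 CPM in aged D+Q, 69.9 in aged and 126 in young, and the class of connecting tubule and principal cells 79.6 CPM in aged D+Q, 73.5 in aged and 159 in young cells. In both of these the aged D+Q over aged interval spans 0. Proximal tubule markers in endothelial-like cells stood at 65.4% of their proximal tubule-like level in aged D+Q, 72.3% in aged and 67.8% in young, and those in thick ascending limb-like cells at 67.1% in aged D+Q, 71.5% in aged and 66.2% in young cells. The part of proximal tubule RNA in these values was not tested. Of 36 members above the floor in endothelial-like cells, 6 were at least 1.5-fold lower in aged than in young and 1 was higher by that much, against 10.9% and 9.91% of all genes there. In thick ascending limb-like cells 7 of 35 were lower and 0 higher, against 11.0% and 16.6%. For aged D+Q over aged, endothelial-like cells had 2 members lower and 4 higher (background 10.8% and 12.7%), and thick ascending limb-like cells had 4 lower and 5 higher (background 17.3% and 12.7%). These backgrounds are several times those of the proximal tubule-like class, which has many more counts. After thinning to 1000 UMIs, 20.2% (19.1 to 21.3) of aged D+Q, 9.97% (9.04 to 10.96) of aged and 27.7% (26.5 to 29.0) of young proximal tubule-like cells held an Ehhadh UMI, by exact Clopper-Pearson intervals. In endothelial-like cells, which are not known for this enzyme, the shares were 11.1% in aged D+Q, 6.34% in aged and 14.8% in young cells, at median depths of 2496, 2350.5 and 2633.5 counts. The unthinned shares in proximal tubule-like cells were 36.0% in aged D+Q, 17.7% in aged and 45.8% in young cells.

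Pdk4 was also counted outside the proximal tubule. Pooled over libraries it had 21.1 CPM in proximal tubule-like, 27.7 CPM in endothelial-like and 36.0 CPM in distal convoluted tubule-like cells. In endothelial-like cells it had 18.2, 9.26 and 42.2 CPM in aged D+Q, aged and young cells, from 22, 7 and 74 counts, with a ratio of −2.14 (−3.55 to −1.07) for aged over young. Of the 38 members, Slc27a2 had the most counts in proximal tubule-like cells, with 2456 CPM pooled, and 1049 CPM to 1483 CPM in the 4 other classes compared. Ppargc1a was higher in some classes outside the proximal tubule, at 815 CPM in distal convoluted tubule-like and 755 CPM in thick ascending limb-like cells, against 265 CPM in proximal tubule-like cells, and it was lower in urothelium-like cells, at 96.1 CPM. Ppara was lower in aged D+Q than in aged cells in the 4 other classes compared, while its log2 ratio in proximal tubule-like cells was 0.07 (0.01 to 0.14). In distal convoluted tubule-like cells it had 78.1 CPM in aged D+Q, 207 CPM in aged and 162 CPM in young cells, with a ratio of −1.39 (−2.003 to −0.83) for aged D+Q over aged. In thick ascending limb-like cells it had 128 CPM in aged D+Q, 279 in aged and 189 in young cells, with −1.12 (−1.53 to −0.71), and in endothelial-like cells 203 CPM in aged D+Q, 314 in aged and 205 in young cells, with −0.62 (−0.89 to −0.36). Connecting tubule and principal cells had 90.6 CPM in aged D+Q, 175 in aged and 174 in young, with −0.93 (−1.62 to −0.27). The difference between classes was not tested. The thick ascending limb-like, endothelial-like and connecting tubule and principal classes pool clusters in unlike shares. Thick ascending limb-like cluster 11 gave 58 of 355 cells in aged D+Q, 89 of 169 in aged and 123 of 393 in young. Cluster 16 of that class, with a median mitochondrial share of 42.0%, gave 84, 12 and 67. In the same order, endothelial-like cluster 13 gave 106 of 407, 13 of 268 and 94 of 554. Connecting tubule and principal cluster 18 gave 86 of 180, 45 of 88 and 29 of 152. The part of this mix in the Ppara, Ehhadh and Pdk4 ratios of these classes was not tested. In distal convoluted tubule-like cells 19.2% of all genes were at least 1.5-fold lower for aged D+Q over aged.

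White adipocyte-like cells also differed between libraries, with 6 cells in aged D+Q, 12 in aged and 79 in young. They had 2605 CPM of Acsl1, 1955 CPM of Lpl and 126 CPM of Pdk4, with a sum of 17953 CPM over the 8 adipocyte markers. In proximal tubule-like cells that sum was 31.1, 32.8 and 87.4 CPM in aged D+Q, aged and young cells. There 6 of 8 markers had counts in aged D+Q (Plin1 and Lep were at 0), 7 of 8 in aged (Plin1 was at 0) and 8 of 8 in young cells. Fabp4 is also 1 of these markers. Urothelial markers in proximal tubule-like cells were also highest in the young library and, unlike the adipocyte sum, higher in aged D+Q than in aged cells, at 27.9 CPM in aged D+Q, 4.37 in aged and 96.9 in young cells, and mitochondrially encoded transcripts stood at 87028 CPM in aged D+Q, 67676 in aged and 91024 in young cells. Leaving mitochondrially encoded genes out of the total lowers the aged over young ratio of every other gene by the same factor. With that total, 7 members in place of 6 were at least 1.5-fold lower in aged than in young cells. The share over all genes was not taken for this setting, so the added member is not a result about the members. With cells limited to 25% mitochondrially encoded counts, the log2 ratio for aged over young was −1.99 for Ehhadh and −2.84 for Pdk4, and that for aged D+Q over aged was 1.44 and 0.99. The part of adipocyte and urothelial RNA in the ratios was not tested.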

How the data were processed

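Kidneys were digested with collagenase, and the cells went into MobiCube 3′ single-cell chemistry and Illumina sequencing, per the labels' protocols. The authors deposited raw UMI counts per gene and barcode with no normalization. The submitters' processing notes name the builds GRCm39 and mm10 without a role, so no coordinates are given for the counted genes, and the aligner is not named. The lowest barcode held 1416 counts, so barcodes had been selected before deposit.

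Barcodes with over 50% mitochondrially encoded counts (149, 82 and 385 in aged D+Q, aged and young) were left out. Scrublet in scanpy called 1, 0 and 2 doublets by its own threshold, too few to have worked, and the barcodes with the highest scores, at 0.8% per 1000 barcodes, were left out in its place (464, 244 and 496). Cells were clustered on 2000 variable genes without the members and the Cyp4a genes, with 30 components, 15 neighbours and Leiden resolution 1, into 32 clusters and without batch integration. For a name, a cluster had to hold 3 or more markers of 1 of 15 lists at 10 counts and at 0.25 of the top cluster's level. A rival list at 0.5 of the winner's mean, or leading genes of another class, left it unnamed. Thresholds of this naming were set after the data were seen, cell names are rebuilt here, and 12.5% of aged D+Q, 16.6% of aged and 13.5% of young cells stayed unnamed.

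Counts were summed per class and library. Log2 ratios carry a prior of 0.5 counts, genes needed 30 counts and a mean of 5 CPM, and a gene was counted as apart at 1.5-fold. Members past that limit with at least 20 counts were to be named with all levels, the rest by role with ranges. Of the pathway lists the 3 largest ratios per comparison were to be named, and others named from them were chosen after their values were seen. The members and lists were chosen with earlier results of these data known. The ratio calculation was tested on simulated data. Tools were Python 3.11.15, scanpy 1.11.5, igraph 0.11.9, scikit-learn 1.9.0, scipy 1.17.1, and R 4.3.3 with edgeR 4.0.16 for TMM factors. Proteins were planned but are not used here.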

Additional observations from a re-analysis of the deposited data

How the results depend on the processing

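The member counts and medians of the 3 comparisons in proximal tubule-like cells were recomputed under 15 alternatives of scaling, prior, expression floor, cell filter, clustering and weighting. Of these values, 132 stayed within 1.5 times (counts) or between the medians of the members' lower and upper counting limits (medians), and 3 moved, all with no expression floor. There 1 member was at least 1.5-fold higher in aged than in young cells, 1 was lower in aged D+Q than in aged cells and 1 was higher in aged D+Q than in young cells. In each case this was Fabp1, which has 4 counts in aged D+Q, 4 in aged and 2 in young cells. Among the 8 named members, 0 ratios past 1.5-fold reversed, 339 ratios stayed within their counting interval and 21 left it. Ehhadh, Pdk4, Acot1, Acot2 and Acsl1 stayed past 1.5-fold for aged over young in 15 of 15, and Acaa1b in 13 of 15 (−0.75 to −0.48). Ehhadh and Pdk4 stayed past it for aged D+Q over aged in 15 of 15 (1.20 to 1.44 and 0.82 to 1.26). For aged D+Q over young, Pdk4 and Acot1 stayed past it in 15, Acadm in 14 and Acox2 in 13, while Ehhadh and Acot2 came past it in 2 each and Acaa1b in 1. For aged D+Q over aged, Acot2 came past it in 1. With a floor of 5 CPM in at least 2 libraries, added after the data were seen, 5 of 35 members were at least 1.5-fold lower for aged over young, against 3.78% of all genes. For aged D+Q over aged 2 were higher, against 1.91%, and for aged D+Q over young 4 were lower, against 3.00%. No paired analysis was possible because each group has 1 library. Depth limits Acot2, Pdk4 and Acot1 in aged cells, with 31, 46 and 130 counts, and the smaller cell classes.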
